A study of Macaca mulatta with 8 samples.

Results

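The 9 dual-specificity MAP kinase phosphatase genes DUSP1, DUSP2, DUSP4, DUSP5, DUSP6, DUSP7, DUSP8, DUSP10 and DUSP16 were followed in the transcriptomes of rhesus macaque microglia that had been exposed to the TLR4 agonist ultrapure lipopolysaccharide (uLPS), with or without MRS2578, an antagonist of the nucleotide receptor P2RY6. The genes were chosen by symbol, and all 9 were found among the 35432 gene rows of the count files. Each of them also passed the filter on low counts, which kept 12131 genes. Primary microglia came from the subcortical white matter of 4 adult animals, the males R07110 (13 years) and R12016 (9 years) and the females R02046 (19 years) and R14143 (6 years). They were grown for 8 days in serum-containing medium with M-CSF. On day 7, cells of each donor received 10 µg/mL uLPS alone, or 5 µM MRS2578 for 1 h and then the same uLPS, and RNA was taken 16 h after uLPS. This gave 4 libraries per condition, 1 for each donor, and every library had been exposed to uLPS. Whether uLPS itself changes these genes is therefore not answered by these libraries.

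Dual-specificity phosphatases of this family switch MAP kinases off by removing phosphate from both the threonine and the tyrosine of the activation loop. Some sit in the cytoplasm and act on ERK, some are nuclear and are induced within minutes of a stimulus, and others prefer the stress kinases JNK and p38. In macrophages, TLR4 activates ERK, JNK and p38, and the phosphatases induced in response, DUSP1 above all, limit how much cytokine is made. MRS2578 blocks P2RY6, a receptor for extracellular UDP that couples to phospholipase C and calcium. The comparison of uLPS+MRS2578 with uLPS alone asks which transcripts differ with the antagonist when TLR4 is engaged. The study describes MRS2578 as selective for P2RY6 but not fully specific. Whether a difference seen here depends on P2RY6 was not tested.

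The conditions of the 2 libraries of donor R02046 differ between sources. A table of CPM values (counts scaled to a common library total) that accompanies the study was matched to the counts, and in 6 of its 8 columns the matching library had the donor and condition of the column. The 2 columns of R02046 each matched the library that the sample labels place in the opposite condition. Differences are therefore given with the conditions as deposited, with the R02046 libraries exchanged, and without R02046. The exchange turns the sign of each R02046 difference and leaves the other 3 donors as they are.

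Total counts ranged from 9231109 to 32790348 per library, so that 3 counts, the limit that a count of 0 allows, stood for 0.0915 to 0.325 CPM before scaling. The summed level of 10 microglia and macrophage markers was 4003 to 4718 CPM with uLPS and 3804 to 4829 CPM with MRS2578. CSF1R and CD68 were high in every library (at least 1007 and 716 CPM), whereas the homeostatic microglia marker CX3CR1 reached at most 2.21 CPM. Markers of lymphocytes summed to at most 0.518 CPM and those of neutrophils to at most 0.457 CPM, with ELANE at 0 in all 8 libraries. Fibroblast markers were present, from 80.6 to 982 CPM with uLPS and from 186 to 398 CPM with MRS2578, and their highest value was in the uLPS library of R14143. Oligodendrocyte markers summed to 61.3 to 75.8 CPM, nearly all of it MBP, and MOG, MOBP and OLIG2 stayed at 0.93 CPM or less. Astrocyte markers summed to 20 to 114 CPM and those of endothelial and mural cells to 43.4 to 125 CPM, with VWF the main one and CLDN5, CDH5 and RGS5 at 0.202 CPM or less. In bulk RNA, fewer cells of a type and less RNA per cell cannot be told apart.

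The shared enzyme core of these phosphatases is a short loop around the catalytic cysteine. In the RefSeq coding sequences of Mmul_10, all 9 genes held exactly 1 stretch that codes for this loop, with 5 residues between the cysteine and the arginine that binds the phosphate. The 24 bases from the codon before the cysteine to the arginine codon are shown for 8 of the genes, with the cysteine codon in capitals, because they show what the family has in common and where the members diverge.
DUSP1: cacTGCcaggcgggcatttcccgg
DUSP2: cacTGCcaggccggcatctcgcgc
DUSP5: cacTGTgaggctgggatctcccgt
DUSP6: catTGCttggctggcattagccgg
DUSP7: cacTGCctggcaggcatcagccgc
DUSP8: cacTGTctggccggcatctcccgt
DUSP10: cacTGCcaggctggggtgtcccgc
DUSP16: cacTGTttagctgggatctcccgc
Compared with DUSP1, DUSP2 was identical at 20 of the 24 bases, DUSP8 and DUSP10 at 19, DUSP5, DUSP6 and DUSP7 at 18, and DUSP16 at 16. Over whole transcripts the genes were distinct. No run of 50 bases was shared with any other annotated transcript for DUSP1, DUSP2, DUSP5, DUSP6, DUSP7, DUSP10 and DUSP16, and 0.0929% of such runs were shared for DUSP4. For DUSP8, 13.2% of the runs were shared with uncharacterized transcripts. These include transcripts of 1 gene whose span overlaps that of DUSP8 on the same strand. DUSP8 counts, and its low level, are uncertain for these reasons. The span of DUSP2 overlaps that of an uncharacterized gene on the opposite strand, and whether their exons overlap was not examined. The library kit keeps the strand, but the strand setting of the counting is not given in the sources used here, so DUSP2 counts are uncertain too.

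DUSP6, the cytoplasmic phosphatase that acts on ERK, was the most abundant member by a wide margin. Levels were compared between genes as CPM per kilobase of annotated exon, averaged over all 8 libraries. DUSP6 was at 146 ± 18.9 CPM per kilobase (SD, n = 8), which was 65% of the summed level of the 9 genes and higher than 96.7% of 10596 tested genes with a known length. Next came DUSP1 at 31.8 ± 18 CPM per kilobase, DUSP16 at 18.1 ± 4.39 and DUSP5 at 14.4 ± 10.7. These 3 lay above the median of the tested genes, 8.15 CPM per kilobase. Below the median were DUSP7 at 6.75 ± 2.26, DUSP2 at 3.41 ± 1.55, DUSP10 at 2.76 ± 0.425, DUSP4 at 1.43 ± 0.828 and DUSP8 at 0.605 ± 0.18 CPM per kilobase.

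**Figure D1:**
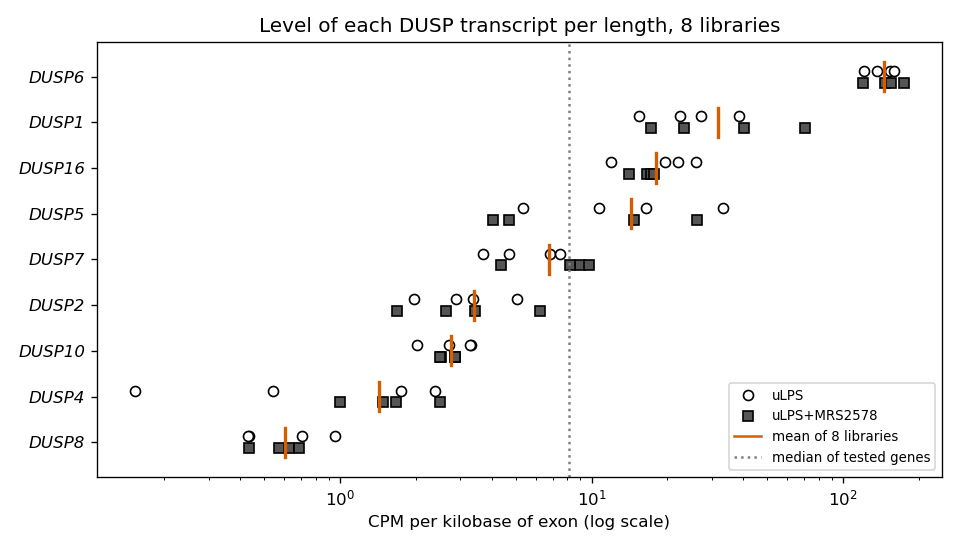
Level of the 9 DUSP transcripts in CPM per kilobase of exon on a log axis, with 1 point per library (open circles, uLPS; filled squares, uLPS+MRS2578; conditions as deposited), the mean of 8 libraries as a bar and the median of the tested genes, 8.15, as a dotted line. DUSP6 stood above every other member in all 8 libraries, reaching 174 CPM per kilobase against at most 70.3 for DUSP1, whereas DUSP5 ran from 4.06 to 33.4 and overlapped its neighbours.

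The order was fixed only at the top. In the plot of levels per kilobase, DUSP6 exceeded DUSP1 in 8 of 8 libraries. DUSP1 exceeded DUSP16 in 6 of 8, DUSP16 exceeded DUSP5 in 6 of 8 and DUSP5 exceeded DUSP7 in 5 of 8, so these neighbours overlapped. Further down, DUSP7 was above DUSP2 in 6 of 8 libraries, DUSP2 above DUSP10 in 5, DUSP10 above DUSP4 in 7 and DUSP4 above DUSP8 in 6. The members also differed in how steady they were from library to library. DUSP6 varied least, with a highest CPM 1.45 times its lowest, followed by DUSP10 at 1.64 times. DUSP16, DUSP8, DUSP7, DUSP2 and DUSP1 varied by 2.18, 2.21, 2.63, 3.7 and 4.56 times. DUSP5 varied by 8.24 times and DUSP4 by 16.3 times.

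With the conditions as deposited, 0 of 9 members reached the threshold, an adjusted p under 0.05 from edgeR (quasi-likelihood, donor blocked), and 0% of the 12131 genes were called. At an unadjusted p under 0.05 it was 1 of 9 members, DUSP7, against 5.14% of all genes. DESeq2's Wald test and edgeR's likelihood ratio test also called 0 of 9 with these labels. With the R02046 libraries exchanged, 1 of 9 members was called, DUSP16, which fell, against 0.618% of all genes (75 of 12131, 12 higher and 63 lower), and 2 of 9 had an unadjusted p under 0.05 against 16.4%. Without R02046, 0 of 9 members were called (0% of 12295 genes) and 3 of 9 had an unadjusted p under 0.05, against 13.6%. The median log2 fold change of the 9 genes was 0.02 as deposited and 0.07 with the exchange, beside -0.01 and 0 over all tested genes. Lower with MRS2578 in every donor were 0 of 9 members as deposited (6.49% of all genes) and 1 of 9 without R02046, DUSP16 (19.8%), and higher in every donor without R02046 were DUSP4 and DUSP7, 2 of 9 (17%). For no member did the 4 values of one condition lie wholly above or below those of the other, under either assignment, where 1.08% of all genes separated as deposited and 2.97% with the exchange.

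**Figure D2:**
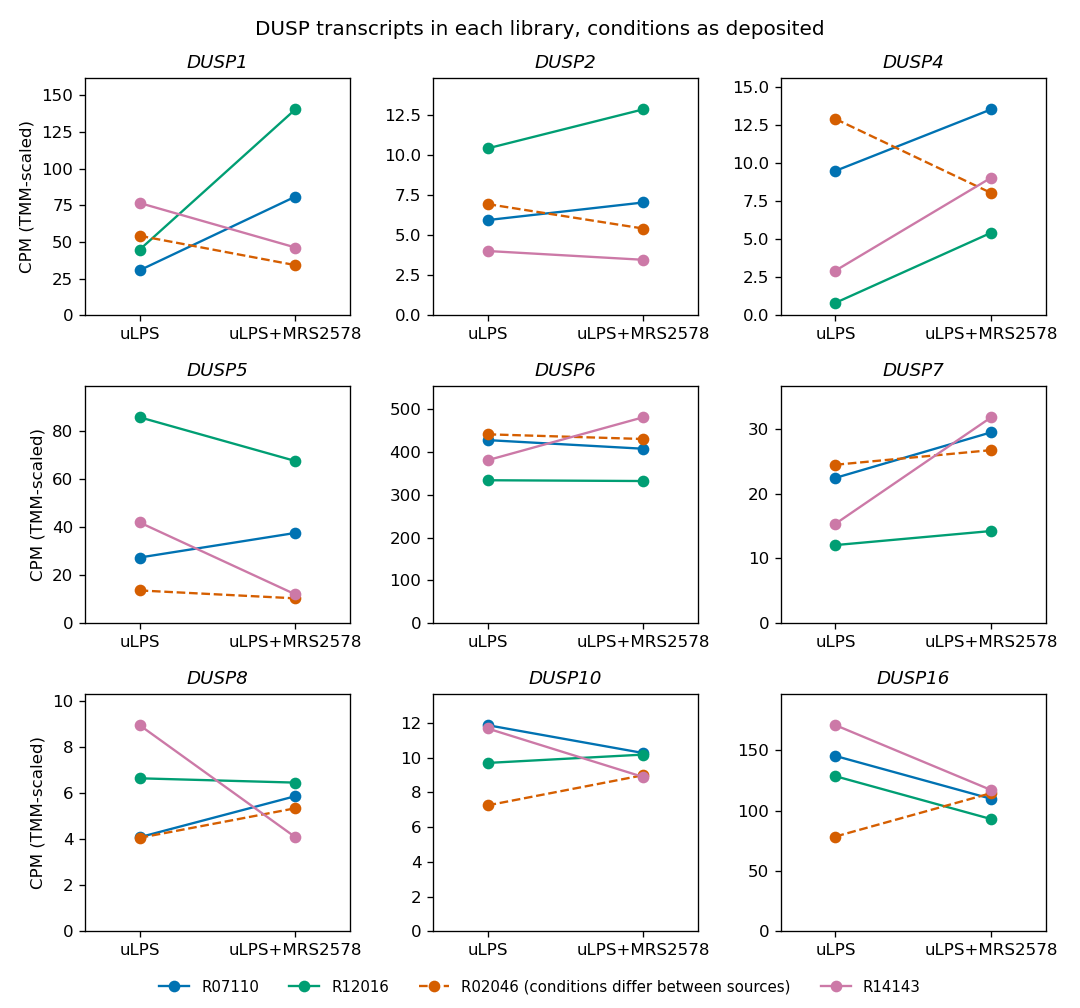
Scaled CPM of each DUSP transcript with uLPS and with uLPS+MRS2578, with 1 line per donor and the conditions as deposited (R02046 dashed). DUSP16 lines run downwards for R07110, R12016 and R14143 and upwards for R02046, whereas DUSP6 stayed between 332 and 481 CPM throughout.

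DUSP6 and DUSP7 are the cytoplasmic ERK phosphatases of the set. DUSP6 (chromosome 11, 89049162 to 89053570, minus strand of Mmul_10) is itself switched on by ERK signaling, and ERK activity was not measured in these libraries. Donors are given in the order R07110, R12016, R02046 and R14143 from here on. The DUSP6 level was 427, 334, 441 and 380.4 CPM with uLPS. With MRS2578 it was 407, 332, 429.9 and 481 CPM. The groups overlapped and 3 of 4 donors differed by 0.07 or less on the log2 scale, with R14143 higher by 0.34. edgeR gave a log2 fold change of 0.06 ± 0.11 (SE, edgeR adjusted p = 0.954), with a 95% interval from -0.21 to 0.32, and 0.07 ± 0.10 with the exchange.

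DUSP7, a cytoplasmic ERK phosphatase related to DUSP6 (chromosome 2, 108189695 to 108197246, minus strand), was the only member higher with MRS2578 in all 4 donors as deposited, a pattern seen in 6.43% of all tested genes. It was at 22.4, 12.1, 24.4 and 15.3 CPM with uLPS. The values with MRS2578 were 29.4, 14.2, 26.7 and 31.8 CPM. R14143 alone more than doubled, and the R12016 values with either condition lay below the lowest value of every other donor. The within-donor log2 differences were 0.39, 0.24, 0.13 and 1.04. As deposited, the log2 fold change was 0.46 ± 0.17 (95% interval 0.05 to 0.87), with an unadjusted p of 0.034 and an edgeR adjusted p of 0.878. With the exchange it was 0.40 ± 0.18 (adjusted p = 0.332), and without R02046 0.57 ± 0.19 (adjusted p = 0.296). Leaving out R14143 lowered it to 0.25 as deposited and to 0.18 with the exchange.

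Among the nuclear, inducible phosphatases, DUSP1 (chromosome 6, 170168726 to 170171764, minus strand), which acts on p38 and JNK as well as ERK, was higher with MRS2578 in the 2 males and lower in the 2 females as deposited. With uLPS it was at 30.7, 44.7, 54.2 and 76.5 CPM. With MRS2578 it was at 80.9, 140.3, 34.2 and 46.2 CPM. The 2 highest values were the MRS2578 libraries of R12016 and R07110, and the lowest was the uLPS library of R07110, so the groups overlapped. Log2 differences were 1.39 and 1.65 in R07110 and R12016, and -0.66 and -0.73 in R02046 and R14143. Exchanging R02046 leaves R14143 as the only donor in which DUSP1 was lower. Fitted over all donors, the log2 fold change was 0.42 ± 0.46 (adjusted p = 0.919) as deposited, 0.77 ± 0.35 (adjusted p = 0.328) with the exchange and 0.80 ± 0.47 (adjusted p = 0.519) without R02046. As deposited it was 0.05 without R07110 and 0.00 without R12016. With the exchange and without R14143, it was 1.25 ± 0.17 (adjusted p = 0.0116). With 2 animals of each sex, and R02046 turning its sign with the exchange, a difference between the sexes was not tested.

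The start of DUSP1 is shown because it holds the only exact match to the cAMP response element TGACGTCA among the 9 genes. Shorter or imperfect forms of this element were not searched for. In the 250 bases before and 50 after each annotated gene start (RefSeq, Mmul_10), TGACGTCA was found in 2.02% of 20782 promoters, on either strand. The 260 bases of 6:170171755-170172014, minus strand, run to the first 10 bases of the gene, with the match in capitals 130 bases before the start.
DUSP1: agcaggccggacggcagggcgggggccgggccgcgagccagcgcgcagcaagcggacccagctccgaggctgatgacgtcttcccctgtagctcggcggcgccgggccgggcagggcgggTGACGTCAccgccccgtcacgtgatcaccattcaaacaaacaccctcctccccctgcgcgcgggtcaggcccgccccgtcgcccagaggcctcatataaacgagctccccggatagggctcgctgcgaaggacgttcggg
The match is a description of the sequence and says nothing of which factor was bound.

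DUSP2 (chromosome 13, 568411 to 571042, minus strand), a nuclear phosphatase best known from activated immune cells, had a fitted difference near 0 as deposited. Its level with uLPS was 5.94, 10.4, 6.94 and 4.01 CPM, and with MRS2578 it was 7.04, 12.8, 5.41 and 3.47 CPM. Both values of R12016 were the highest and both of R14143 the lowest, so donors were further apart than conditions. The log2 differences were 0.24, 0.30, -0.35 and -0.21, with the same signs as for DUSP1 in every donor. The estimate as deposited was a log2 fold change of 0.02 ± 0.18 (adjusted p = 0.992, 95% interval -0.41 to 0.46), and 0.19 ± 0.17 with the exchange.

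DUSP4 (chromosome 8, 29608062 to 29625329, minus strand), a nuclear relative of DUSP1, had the largest fitted difference of the 9. It was scarce in 1 library, the uLPS library of R12016, with 13 counts or 0.83 CPM, against 86 counts or 5.44 CPM with MRS2578. In R07110 it went from 9.5 CPM with uLPS to 13.5 with MRS2578, in R14143 from 2.95 to 9.06, and in R02046 from 12.9 to 8.05 as deposited. MRS2578 values were thus higher in 3 of 4 donors, or in 4 of 4 with the exchange, a pattern found in 10.6% of all genes. Its fitted log2 fold change was 0.85 ± 0.47 (edgeR adjusted p = 0.878), 1.11 ± 0.30 (adjusted p = 0.133, 95% interval 0.42 to 1.80) with the exchange and 1.31 ± 0.38 (adjusted p = 0.25) without R02046. With the exchange, DESeq2's Wald test gave 1.29 (adjusted p = 0.0156) and edgeR's likelihood ratio test 1.28 (adjusted p = 0.00957), so its call depended on both the labels and the test. Over all 12131 genes, these tests then called 583 and 616. Leaving out R12016 lowered the value as deposited to 0.46.

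DUSP5 (chromosome 9, 111061466 to 111075488, plus strand), a nuclear phosphatase specific for ERK, differed more between donors than between conditions. With uLPS it was at 27.3, 85.5, 13.7 and 41.9 CPM, and with MRS2578 at 37.5, 67.4, 10.4 and 12 CPM. R12016 was the highest donor and R02046 the lowest in both conditions, and the groups overlapped across nearly their whole range. The largest step was the decrease in R14143, of -1.79 on the log2 scale, beside 0.46, -0.34 and -0.39 in R07110, R12016 and R02046. In R14143 the summed fibroblast markers went from 982 to 363 CPM between the same libraries. The summed astrocyte markers went from 106 to 40.4 CPM. The part of these cells in the R14143 values of the other members or of DUSP5 was not tested. edgeR gave a log2 fold change of -0.50 ± 0.33 (adjusted p = 0.881), and -0.33 ± 0.34 (adjusted p = 0.686) with the exchange. Without R14143 and with the exchange, it was 0.14.

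A pair of serum response elements, the sites read by serum response factor, was found at the start of DUSP5 and in none of the other 8 members. At least 1 such element was found in 1.2% of all promoters. The sequence of 9:111061216-111061475, plus strand, shows both in capitals, side by side, starting 16 and 6 bases before the gene start, so that the second runs into the gene.
DUSP5: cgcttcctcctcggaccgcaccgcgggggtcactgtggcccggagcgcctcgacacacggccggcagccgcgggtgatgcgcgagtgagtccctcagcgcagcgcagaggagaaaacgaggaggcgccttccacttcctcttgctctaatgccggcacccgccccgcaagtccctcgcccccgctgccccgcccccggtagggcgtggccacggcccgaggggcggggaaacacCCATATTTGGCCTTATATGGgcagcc
No AP-1 site (TGANTCA, in 5.92% of promoters on either strand) was found in any member. A pair of heat shock units, GAANNTTC, was found in DUSP2 alone, 55 bases before its start (6.15% of promoters), and the reverse arrangement TTCNNGAA (6.65%) in none.

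DUSP16, DUSP10 and DUSP8 are the phosphatases of JNK and p38. DUSP16 (chromosome 11, 13847193 to 13939097, minus strand), which acts mainly on JNK, was at 145, 129, 78.5 and 171 CPM with uLPS. With MRS2578 it was at 109.8, 93.0, 115 and 117 CPM. It was lower with MRS2578 in the 3 donors other than R02046, with log2 differences of -0.40, -0.47 and -0.55, and higher in R02046 as deposited, with 0.54. As deposited, the log2 fold change was -0.23 ± 0.19 (edgeR adjusted p = 0.901, 95% interval -0.67 to 0.22). With the exchange all 4 donors were lower, as were 13.2% of all genes, and DUSP16 fell by 0.49 on the log2 scale (SE 0.08, adjusted p = 0.0496, 95% interval -0.67 to -0.31). The mean then was 139.8 ± 24.2 CPM with uLPS and 99.6 ± 17.3 CPM with MRS2578 (SD, n = 4 each), and the 2 groups still overlapped. Without R02046 the estimate was nearly the same, -0.47 ± 0.09, with an adjusted p of 0.16. The call with the exchange was lost without R07110 (-0.52, adjusted p = 0.321), without R12016 (-0.49, adjusted p = 0.188) and without the donor block (-0.49 ± 0.17). Without R07110 or the block, 0 genes were called in all. It held without R14143 (adjusted p = 0.0204), by DESeq2's Wald test (adjusted p = 7.01e-05) and by the likelihood ratio test (adjusted p = 0.000727). Those fits called 918 of 12128, 583 of 12131 and 616 of 12131 genes.

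**Figure D3:**
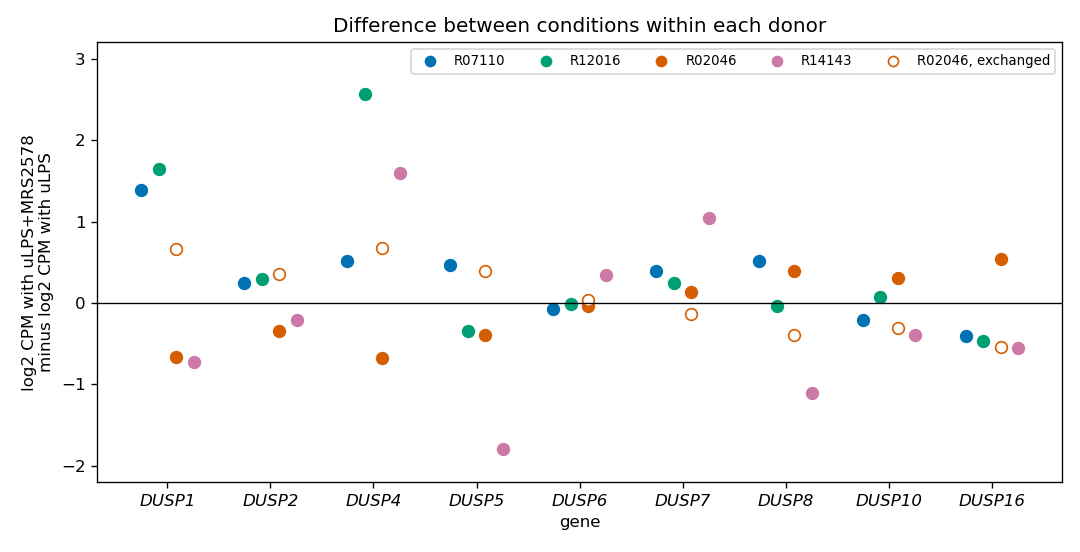
Difference between uLPS+MRS2578 and uLPS within each donor, in log2 CPM, for the 9 genes, with filled points for the conditions as deposited and an open point for R02046 with its libraries exchanged. With the open point, the 4 values of DUSP16 lie together between -0.55 and -0.40, whereas those of DUSP1 and DUSP5 lie on both sides of 0.

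As the plot of within-donor differences shows, DUSP16 was the member in which the donors were closest to each other once R02046 was exchanged. The SD of its 4 differences was 0.07, against 0.51 as deposited, and against 0.18 to 1.06 for the other 8 members with the exchange. The sequence before the DUSP16 start is given for comparison with those of DUSP1 and DUSP5. None of the motifs searched was found in it, so 11:13939088-13939347, minus strand, is in lower case throughout.
DUSP16: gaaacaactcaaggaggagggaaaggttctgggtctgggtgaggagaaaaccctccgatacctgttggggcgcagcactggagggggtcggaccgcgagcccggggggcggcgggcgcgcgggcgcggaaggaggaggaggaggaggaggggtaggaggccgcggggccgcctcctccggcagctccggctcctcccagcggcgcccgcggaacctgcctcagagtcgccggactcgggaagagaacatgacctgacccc
This window and that of DUSP1 had 72.3% and 71% G and C over the 300 bases searched, against a median of 58.3% for all promoters.

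DUSP10 (chromosome 1, 79368653 to 79410247, minus strand), which dephosphorylates JNK and p38, stayed low and steady. It was at 11.9, 9.70, 7.26 and 11.7 CPM with uLPS, and at 10.3, 10.2, 8.996 and 8.89 CPM with MRS2578. The MRS2578 values all lay within the range of the uLPS values. Fitted over all donors, the log2 fold change was -0.07 ± 0.17 (adjusted p = 0.959, 95% interval -0.47 to 0.32), and -0.21 ± 0.15 (adjusted p = 0.524) with the exchange.

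DUSP8 (chromosome 14, 1618392 to 1636874, minus strand), which also prefers JNK and p38, was the scarcest per length. Its level with uLPS was 4.08, 6.64, 4.06 and 8.94 CPM, and with MRS2578 it was 5.86, 6.45, 5.34 and 4.08 CPM. R14143 had the highest value with uLPS and the lowest with MRS2578, a log2 difference of -1.11, and the other 3 donors lay between -0.04 and 0.51. The estimate as deposited was a log2 fold change of -0.07 ± 0.30 (adjusted p = 0.981), with a 95% interval from -0.78 to 0.63, and -0.23 ± 0.27 with the exchange. Without R14143 it was 0.29 as deposited and 0.09 with the exchange, so the sign rested on that donor.

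**Figure D4:**
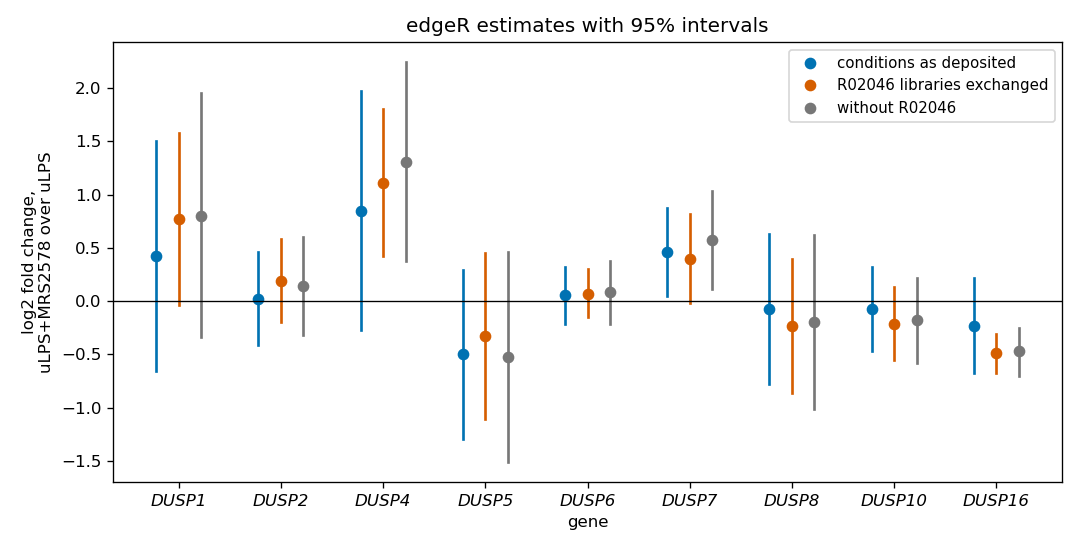
Fitted log2 fold change of uLPS+MRS2578 over uLPS for the 9 genes with 95% intervals from edgeR, with the conditions as deposited, with the R02046 libraries exchanged and without R02046. The intervals of DUSP6 lie within -0.21 to 0.38 in all 3 fits, and the DUSP16 interval narrows from -0.67 to 0.22 as deposited to -0.67 to -0.31 with the exchange.

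In the plot of fitted fold changes, the widest intervals as deposited were those of DUSP4, from -0.27 to 1.97, DUSP1, from -0.66 to 1.5, and DUSP5, from -1.29 to 0.29. The intervals of DUSP1, DUSP2, DUSP5, DUSP6, DUSP8 and DUSP10 included 0 in all 3 fits. Those of DUSP4 and DUSP16 included 0 as deposited only. The DUSP7 interval included 0 with the exchange only, from -0.02 to 0.82. No member excluded 0 in all 3 fits. Across the 8 libraries, some members varied together, which is given as a description because libraries of a donor are not independent. The Pearson correlation of log2 CPM was 0.91 between the ERK phosphatases DUSP6 and DUSP7, 0.85 between DUSP4 and DUSP7 and 0.80 between DUSP10 and DUSP16. DUSP5 ran against DUSP6 (-0.92) and DUSP7 (-0.83), and DUSP2 against DUSP6 (-0.77). Over all tested genes, those closest to DUSP6 in the 8 libraries were POLR3B (0.971), MAPKAP1 (0.971) and FASTKD2 (0.97), and those closest to DUSP16 were SP4 (0.974), FAR1 (0.971) and MAP7 (0.962). For DUSP1 they were FLNC (0.957), BRF2 (0.957) and NR1D1 (0.956), and for DUSP4 FHOD1 (0.984), TAF1D (0.967) and CDK7 (0.962). For DUSP5 they were ZNF410 (0.965), ZNF496 (0.965) and LTO1 (0.963), and for DUSP7 DHX33 (0.972), SLC7A6 (0.966) and TRDMT1 (0.958). For DUSP2 they were GAS6 (0.983), NDUFA4 (0.982) and SYNGR1 (0.979), for DUSP8 C8H8orf76 (0.956), CCDC92 (0.921) and ZNF358 (0.916), and those given for DUSP10 were CEP120 (0.94) and HAPLN3 (0.932). The highest of 12131 correlations on 8 points can be large for any gene.

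No MAP kinase gene was called in either fit. The list takes in MAP kinases by name, and which of them these phosphatases act on was not examined. Of 14 MAP kinases, 10 were tested and 0 were called with either assignment, with 5 higher and 5 lower as deposited (median log2 fold change 0.01) and 3 higher and 7 lower with the exchange (median -0.13). MAPK6 averaged 111 CPM over the 8 libraries with a log2 fold change of 0.07 ± 0.13 as deposited, and MAPK14, which encodes p38 alpha, 49.0 CPM with -0.05 ± 0.15. Of the MAP kinase kinases, 6 were tested and 0 called. MAP2K3, an activator of p38, was higher with MRS2578 in all 4 donors under the deposited labels (0.47 ± 0.13, adjusted p = 0.878) and had 0.45 ± 0.13 with the exchange (adjusted p = 0.153). MAP2K6, the other p38 activator, named here after its values were seen, had -0.43 ± 0.22 as deposited (adjusted p = 0.878, lower in 3 of 4 donors). With the exchange it had -0.64 ± 0.11 (adjusted p = 0.0526, lower in 4 of 4 donors). MAP2K1 and MAP2K2, the kinases of ERK, had log2 fold changes of -0.04 ± 0.10 and 0.01 ± 0.11.

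Upstream, 17 of 17 MAP3K and TAB genes were tested and 0 were called by the quasi-likelihood test, with medians of 0.02 as deposited and -0.13 with the exchange. TAB2 had a log2 fold change of -0.18 ± 0.17 as deposited (adjusted p = 0.906) and -0.40 ± 0.09 with the exchange (adjusted p = 0.0979). MAP3K11 had 0.22 ± 0.09 as deposited (adjusted p = 0.878) and 0.16 ± 0.10 with the exchange (adjusted p = 0.458). Downstream, 10 of 10 MAPK-activated kinases were tested and 0 were called, among them RPS6KA1 at -0.09 ± 0.09, MAPKAPK3 at -0.13 ± 0.13 and MKNK1 at -0.23 ± 0.15 as deposited. Other phosphatases that act on MAP kinases gave 5 tested genes of 9 and 0 calls, and PPP2CB, PPM1A and PPM1B had log2 fold changes of 0.12, 0.03 and -0.05. Of the atypical dual-specificity phosphatases, 8 of 16 were tested and 0 were called, with STYXL1 at 0.00, STYX at -0.11 and DUSP18 at 0.09.

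In the quasi-likelihood fits with all 4 donors, the related lists held 2 called genes, CCND1 and FOSB, both with the exchange. In the ERK feedback and output list, 12 of 14 genes were tested and 0 were called as deposited. CCND1, which encodes cyclin D1, was called with the exchange (0.72 ± 0.12, adjusted p = 0.0496) and had 0.44 ± 0.26 as deposited (adjusted p = 0.878). IER3 had log2 fold changes of -0.78 ± 0.25 and -0.80 ± 0.22 (adjusted p = 0.878 and 0.141), and SPRED1, an inhibitor of Ras signaling, -0.29 ± 0.19 and -0.49 ± 0.11 (adjusted p = 0.881 and 0.094). Among AP-1 and immediate early factors, 11 of 12 were tested. FOSB was called with the exchange, at 4.25 ± 0.42 (adjusted p = 0.0212), against 3.25 ± 1.02 (adjusted p = 0.878) as deposited. In the libraries labelled uLPS it was at 0.579, 0.894, 2.35 and 0.203 CPM, and in those labelled MRS2578 at 14, 27.8, 0.585 and 1.29 CPM. The log2 differences of FOSB were largest in R07110 and R12016, the donors in which DUSP1 was also higher as deposited. In R02046 both genes were lower with MRS2578 as deposited, and in R14143 FOSB was higher whereas DUSP1 was lower. The sum of the 11 list genes went from 459 to 614 CPM with MRS2578 in R07110 and from 587 to 829 in R12016. In R02046 as deposited this sum went from 412 to 395 CPM, and in R14143 from 643 to 431. These are the directions of DUSP1 in all 4 donors, and the sum was not tested. JUN, JUNB and FOSL2 had log2 fold changes of 0.46 ± 0.24, -0.35 ± 0.15 and 0.09 ± 0.18 as deposited, with 0 calls.

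**Figure D5:**
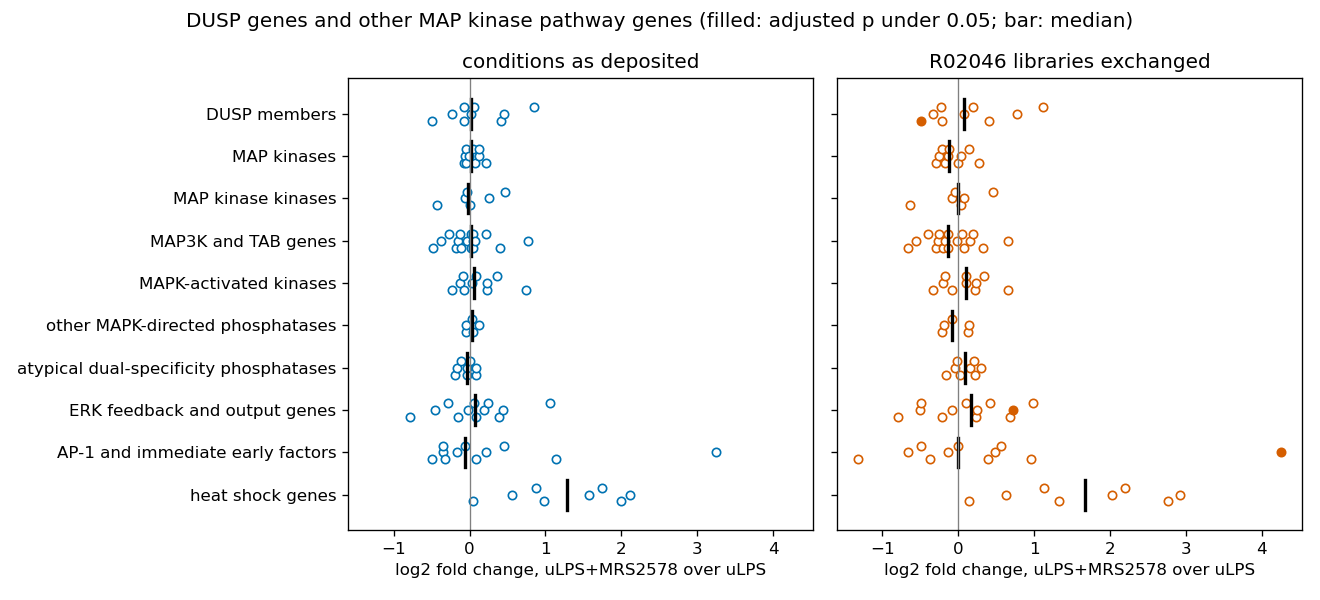
Fitted log2 fold change of each tested gene of the DUSP family and of 9 lists of related genes, as deposited and with the R02046 libraries exchanged, with filled points for an adjusted p under 0.05 and a bar at the median of each list. The heat shock genes have medians of 1.28 and 1.67, and the medians of the other lists lie between -0.13 and 0.16.

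In the same libraries the summed level of 8 heat shock genes was higher with MRS2578 in 3 of 4 donors as deposited and in 4 of 4 with the exchange, and the sum itself was not tested. It was 4417 CPM with uLPS and 13546 with MRS2578 in R07110, 4318 and 19707 in R12016, 7306 and 5303 in R02046 as deposited, and 3955 and 5719 in R14143. All 8 of these chaperone genes had a positive log2 fold change under both assignments, with a median of 1.28 as deposited and 1.67 with the exchange, and 0 of 8 were called with either by the quasi-likelihood test. With the exchange, 5 of 8 were called by DESeq2's Wald test, 7 of 8 by the likelihood ratio test and 6 of 8 by the quasi-likelihood test without R14143. Over all genes, those fits called 583 of 12131, 616 of 12131 and 918 of 12128. HSP90AA1 had 0.88 ± 0.47, HSPA8 0.56 ± 0.22 and HSPH1 1.58 ± 0.79 as deposited (adjusted p = 0.878 each). R07110 and R12016 had the largest steps in this sum and in DUSP1. In R02046 both were lower with MRS2578 as deposited. In R14143 the sum was higher with MRS2578, whereas DUSP1 was lower, at 46.2 CPM against 76.5 with uLPS. The part of a stress response in the DUSP1 values was not tested.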

How the data were processed

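Strand-specific libraries of poly(A) RNA, 8 from 4 donors, had been read on an Illumina NovaSeq. The authors deposited raw counts, the number of uniquely mapped reads within exons per Ensembl gene, from alignments to Mmul_10. The submitters' processing notes name Trimmomatic 0.30, TopHat2 2.0.14, SAMtools 1.3 and HTSeq 0.6.1p1, whereas the study's methods name fastp, STAR, SAMtools and HTSeq. The annotation release and strand setting are not given in the sources used here.

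Here, counts were scaled by TMM and tested in edgeR 4.0.16 (limma 3.58.1, R 4.3.3) by the quasi-likelihood F-test, blocking on donor, over 12131 genes past filterByExpr (minimum count 10), with Benjamini-Hochberg adjustment and a threshold of 0.05. Intervals are 95% intervals of the log2 fold change. Within-donor differences used log2 CPM with a prior count of 2, which damps low values. Fold changes are those of uLPS+MRS2578 over uLPS. Each donor number in the labels marks 1 animal with 1 library per condition, which pairs the samples. Deviations of paired libraries from their group means correlated at 0.458 to 0.602 across genes. No pair of libraries agreed within sampling noise.

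Conditions followed the sample labels in the first fit. The exchange of the R02046 libraries rests on the match of counts to the CPM columns that accompany the study. Exon lengths, positions and sequences come from RefSeq on Mmul_10, matched by symbol. Levels per kilobase used the union of annotated exons. Lengths of the longest transcript gave the same order, but they differ from the union only for DUSP8, DUSP10 and DUSP16. Reads had been counted per Ensembl gene, whose exons can differ from those of RefSeq, and the effect of this on the order was not tested. The genes named were all 9 members, the 3 genes of highest mean CPM in each related list, list genes with an adjusted p under 0.05 under either assignment, and the 3 genes most correlated with each member. Some genes that this rule names are not reported here. In the related lists, MAP2K7, PPP2CA, DUSP3, DUSP12, DUSP13, IER2 and MAG were not matched by symbol. Members and lists were chosen with earlier results of these data known. The scripts were tested on simulated data. Alternatives were DESeq2 1.42.0 (Wald test, size factors), library totals, edgeR's likelihood ratio test and earlier estimation, other filters, no block, each donor left out in turn, and a prior count of 0.25. Total counts of 9231109 to 32790348 per library set the precision, and counting limits cover counting error only.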

Additional observations from a re-analysis of the deposited data

Results flagged for a closer look

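Of 27 groups of 4 values examined, made of the uLPS levels, the MRS2578 levels and the within-donor differences of the 9 genes, 2 held a value far from the other 3. Chance gives about 1 in 20 such groups if the values are independent and normal. The groups here share libraries, so they are not independent. The log2 difference of DUSP6 in R14143, 0.34, stood apart from the other 3 donors, the lowest of which was at -0.07. The log2 difference of DUSP16 in R02046, 0.54 with the conditions as deposited, stood apart from the other donors, the lowest of which was at -0.55, and R02046 is the donor whose conditions differ between sources.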

How the results depend on the processing

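As deposited, 0 genes were called. DESeq2's Wald test gave 1 and edgeR's likelihood ratio test 5. With the R02046 libraries exchanged, the count was 75, and 583 by DESeq2's Wald test and 616 by the likelihood ratio test. It ranged from 0 to 918 when another donor was left out as well, with 0 without R07110, 5 without R12016 and 918 without R14143. Leaving out 1 donor as deposited gave 0 genes each time. Without the replicate block, 0 genes were called under either assignment, so the calls with the exchange rest on the pairing by donor.

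Of the fits of the 9 members under the alternatives, 155 kept the direction and the side of the threshold, 7 passed it and 9 turned the sign. The 7 were those of DUSP16 with the exchange (4 fits, -0.50 to -0.47), of DUSP4 with the exchange by DESeq2 and the likelihood ratio test (1.29 and 1.28), and of DUSP1 with the exchange and without R14143 (1.25). Each of the 9 turns was in a fit without 1 donor, and 3 of them also had the exchange. As deposited, DUSP1 ranged from 0.00 (without R12016) to 0.83, DUSP2 from -0.07 (without R07110) and -0.06 (without R12016) to 0.14, DUSP6 from -0.04 (without R14143) to 0.09, DUSP8 from -0.29 to 0.29 (without R14143), and DUSP10 from -0.18 to 0.04 (without R14143). With the exchange and without R14143, DUSP5 was at 0.14, DUSP6 at -0.02 and DUSP8 at 0.09. The cause was not tested. Low counts limit DUSP4, with 13 counts in 1 library, and DUSP8 and DUSP2, with as few as 38 and 62. Further calls in the related lists came, with the exchange, from DESeq2's Wald test, the likelihood ratio test and the quasi-likelihood fit without R14143. Each called 1 or 2 MAP3K and TAB genes, 1 of the MAP kinase kinases and 2 to 4 ERK feedback and output genes. Each also called 2 or 3 AP-1 and immediate early factors and 5 to 7 heat shock genes. DESeq2's Wald test and the likelihood ratio test both called 1 of the MAPK-activated kinases. Over all genes, these fits called 583 of 12131, 616 of 12131 and 918 of 12128.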
